A study of Rattus norvegicus with 218 samples.

Results

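Neurons captured in the vagal dorsal motor nucleus (DMV) of rats that had sham surgery were compared with those of naive rats. The members were every sham or naive sample in which at least 42 RT-qPCR assays (25% of the panel) had a threshold cycle (Ct), and 143 of the 213 samples of the series met that rule. Of these, 81 came from 3 naive animals and 62 from 4 sham animals. All animals were male Sprague Dawley rats. The sham operation was ketamine/xylazine anesthesia with surgical exposure and no ligation of the femoral arteries, so anesthetic and incision cannot be told apart. Each animal of the study received isoflurane briefly before decapitation. Collection 2.5 hours after reperfusion was stated for the series as a whole. The question was which transcripts of DMV neurons differ after the operation alone. Left and right DMV were both used, and samples of 1 neuron were kept apart from pools of 2 to 8 neurons. The animal was the replicate throughout.

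The DMV holds the parasympathetic motor neurons whose axons run in the vagus nerve to the stomach, gut, pancreas, airways and heart. Most of them make acetylcholine, a minority makes catecholamines, and GABA neurons lie among them. Their firing is set by calcium and HCN channels and by receptors for gut hormones, histamine, angiotensin, opioids and neuropeptides, which is what the panel covered. A missing Ct means a transcript that was not detected, not an absent one. Each gene was therefore described by 2 quantities: the share of an animal's samples in which its transcript was detected, and the level where it was detected, which is minus Ct after centring on 35 widely detected genes, so that 1 cycle is about a 2-fold difference in transcript.

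The kept samples were spread unevenly. Naive animals 1, 2 and 3 gave 3, 10 and 11 pools, and sham animals 1 to 4 gave 7, 11, 11 and 17. Samples of 1 neuron were 70.4% of the naive and 25.8% of the sham set, so sample type and operation are partly confounded, and 54 of the 57 naive single neurons came from naive 3. The depth of a sample is its number of detected assays, and the animal means per pool were 71.7, 84.4 and 99.6 in naive rats and 96.0, 85.2, 100.2 and 97.2 in sham rats. The difference of 9.40 assays did not pass an exact permutation test over animals (p = 0.286, two-sided). The number of neurons per pool was 4.15 ± 0.593 (SD, n = 3) in naive and 4.15 ± 0.540 (SD, n = 4) in sham animals.

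Cells were captured by their NeuN stain, which marks neurons of any transmitter, and were checked against that label. The pan-neuronal transcripts Map2, Eno2, Camk2a and Scn2a were each detected in 80.7% to 100% of the samples of every group, and Chat, the gene of choline acetyltransferase, in 22 of 24 naive and 38 of 46 sham pools and in 39 of 57 naive and 10 of 15 sham single neurons. Not all captured neurons were thus shown to be cholinergic: of the 54 single neurons of naive 3, Gad1 or Gad2, genes of GABA synthesis, was detected in 22, of which 8 also had Chat. Gfap, an intermediate filament gene that defines astrocytes, was also detected, in 87.5% of naive and 78.3% of sham pools and in 73.7% of naive and 93.3% of sham single neurons. Its animal share in pools was 3.44 percentage points higher in sham rats (adjusted p = 0.913, limma), a direction set by naive 1 with 1 of 3 pools: without that animal the difference was -17.1 points. The part of astrocyte RNA in the results below was not tested. No microglial, oligodendrocyte or endothelial marker of the lists used was on the panel.

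**Figure D1:**
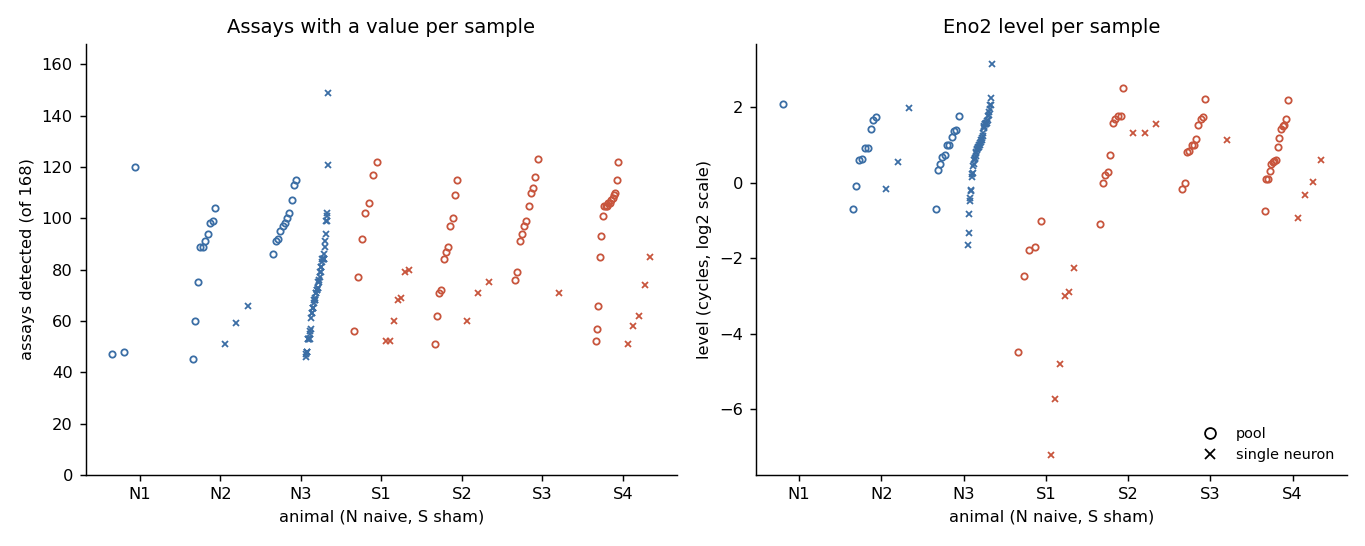
Each point is 1 sample, a circle for a pool and a cross for a single neuron, by animal (N naive, S sham). The left panel gives the number of assays with a Ct, where naive 1 had pools at 47, 48 and 120; the right panel gives the Eno2 level in cycles, where the samples of sham 1 lie below nearly all others. The lone single neuron of sham 3 is drawn but entered no test.

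In pools, no transcript passed the test by its detected share, and the direction leaned towards more frequent detection after sham surgery. Of 133 genes tested by share, 97 had a higher mean in sham animals and 36 a lower one, with a median difference of +7.48 percentage points. No gene passed an adjusted p of 0.05 in limma (0 of 133, 0%), and the smallest adjusted p was 0.350. An unadjusted p under 0.05 was found for 7 genes, of which 6 were higher in sham, where chance would give about 6.65 genes. Fisher's exact test over samples also gave 0 calls, with 8 genes at an unadjusted p under 0.05. The median shift depended on naive 1, which had only 3 pools: without it the median was -0.67, 36 of the 97 positive differences turned negative and 66 of the 133 genes were higher in sham. Leaving out any other single animal turned 3 to 8 of the 97. The median was 12.2 without naive 3 and 4.98 without sham 3. At a limit of 50% of the assays it was -1.50.

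**Figure D2:**
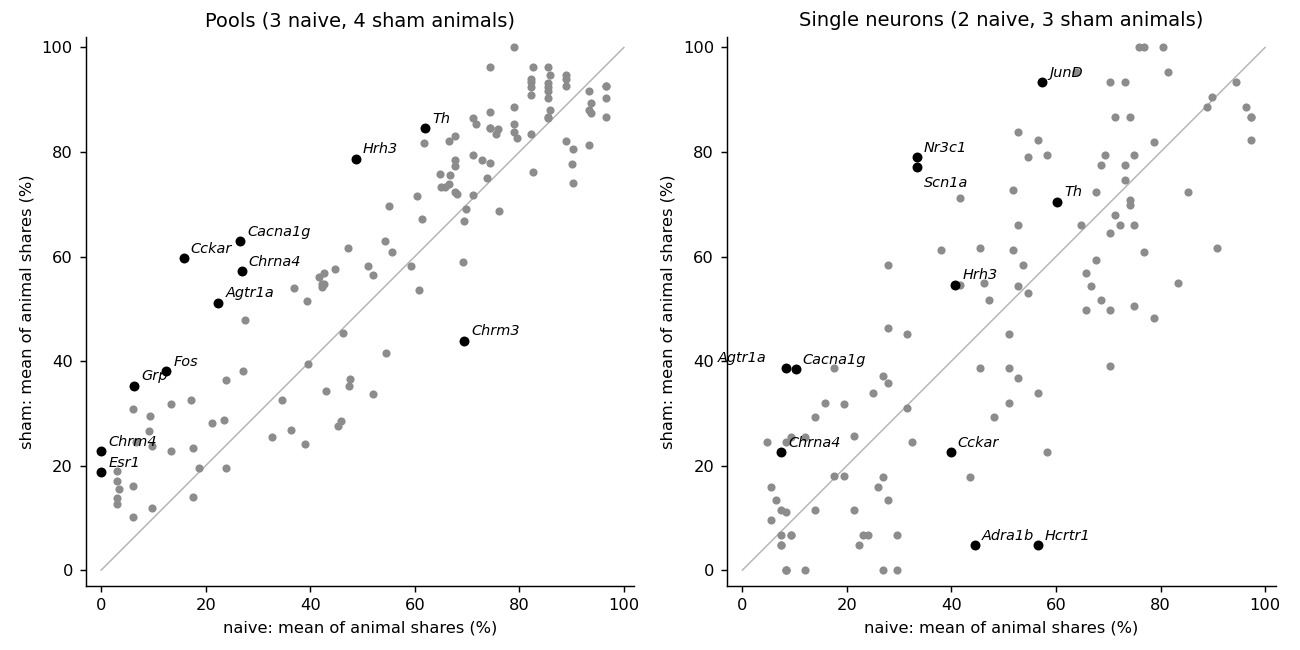
Each point is 1 gene, placed by its mean share of samples with the transcript detected in naive (horizontal, %) and sham animals (vertical, %), for pools on the left and single neurons on the right; the line marks equal shares. In pools most points lie above the line, with Cckar and Cacna1g furthest from it; in single neurons the points scatter on both sides, and Cckar lies below through the 3 neurons of naive 2.

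The smallest p-values belonged to Cckar, Cacna1g, Chrna4, Hrh3 and Agtr1a, the 5 genes that the study named for sham surgery. It chose them on these same samples, so their direction is not independent evidence. None passed the adjusted threshold. All 5 had a higher share in sham pools, by 28.8 to 43.9 percentage points (median 30.4), beside the median of 7.48 over all genes tested.

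Cckar encodes the cholecystokinin A receptor, through which the gut hormone cholecystokinin acts on vagal neurons. It was detected in 0 of 3, 2 of 10 and 3 of 11 pools of the naive animals. In the sham animals it was detected in 5 of 7, 1 of 11, 9 of 11 and 13 of 17 pools. Sham 1, 3 and 4 lay far above every naive animal, and sham 2 lay among the naive animals. Means were 15.8% ± 14.1 (SD, n = 3) and 59.7% ± 34.0 (SD, n = 4), a difference of 43.9 points (SE 14.3, adjusted p = 0.350, limma), and the exact permutation test over animals gave p = 0.114. Without sham 2 the difference was 60.8 points and Cckar passed (adjusted p = 0.00733, limma). That call came from leaving out the sham animal with the lowest share, for a gene chosen on these samples. It is therefore no independent evidence. With the animal's mean number of detected assays as a covariate the difference was 25.2 points.

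Cacna1g encodes the Cav3.1 subunit of T-type calcium channels, which open near the resting potential and shape burst firing. Its transcript was found in 1 of 3, 1 of 10 and 4 of 11 naive pools, and in 5 of 7, 7 of 11, 7 of 11 and 9 of 17 sham pools. Every sham animal was above every naive animal. The means were 26.6% ± 14.4 (SD, n = 3) and 62.9% ± 7.59 (SD, n = 4) with a difference of 36.3 points (SE 12.2, adjusted p = 0.350, limma). The exact permutation p was 0.0286, the smallest that 3 against 4 animals can give. The difference was 28.1 points without naive 2 and 54.5 points at the limit of 50% of the assays.

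Chrna4 encodes the alpha4 subunit of nicotinic acetylcholine receptors. It was detected in 1, 2 and 3 pools of naive 1, 2 and 3, and in 3, 6, 8 and 10 pools of sham 1 to 4. The groups did not overlap: the means were 26.9% ± 6.68 (SD, n = 3) and 57.2% ± 12.3 (SD, n = 4), with a difference of 30.4 points (SE 12.2, adjusted p = 0.719, limma) and an exact permutation p of 0.0571. The difference was 13.8 points in left DMV alone and 44.4 points in right DMV alone, and 15.4 points at the 50% limit; whether the sides differed was not tested.

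Hrh3 encodes the histamine H3 receptor, an inhibitory receptor on neurons and their terminals. It was detected in 1 of 3, 4 of 10 and 8 of 11 naive pools. Sham animals had it in 5 of 7, 8 of 11, 11 of 11 and 12 of 17 pools. The naive animals were far apart and the highest of them, naive 3, reached the range of the sham animals. The means were 48.7% ± 21.1 (SD, n = 3) and 78.7% ± 14.2 (SD, n = 4), with an SE of 12.8 points for their difference (adjusted p = 0.719, limma; exact permutation p = 0.114). The difference was 17.3 points with the number of detected assays as a covariate. Agtr1a, the gene of the angiotensin II type 1a receptor, was detected in 0 of 3, 4 of 10 and 3 of 11 naive pools and in 4 of 7, 6 of 11, 7 of 11 and 5 of 17 sham pools. Sham 4 lay below naive 2. Its difference was 28.8 points (SE 12.8, adjusted p = 0.719, limma; exact permutation p = 0.0857), and 17.5 points without naive 1.

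**Figure D3:**
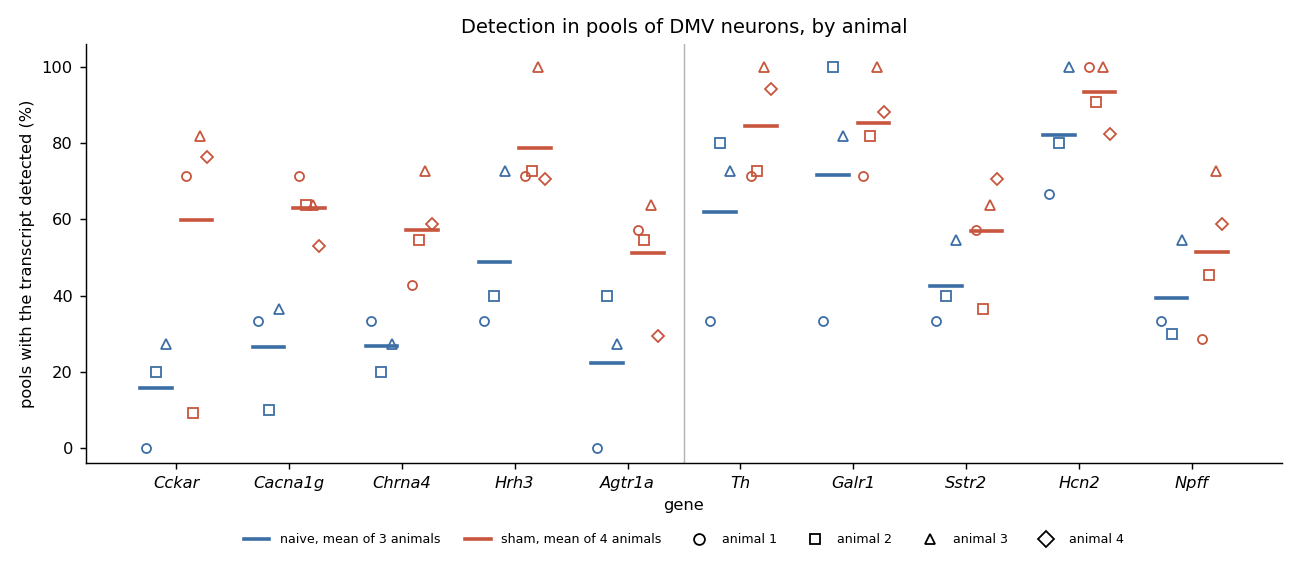
The share of an animal's pools (%) in which each transcript was detected, with 1 symbol per animal and a bar at the group mean, for the genes the study named for sham surgery (left of the line) and those it named as similar in pattern (right). Cacna1g and Chrna4 show no overlap between groups; for Cckar the square of sham 2 sits at 9.09%, among the naive animals.

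The levels of these genes were compared where they were detected. Where Cckar was detected its level ran from -3.88 to -2.04 cycles in 5 naive pools (median -2.38) and from -10.77 to 0.24 in 28 sham pools (median -3.09). Hrh3 had medians of -3.17 in 13 naive and -3.34 in 36 sham pools, and Chrna4 of -3.50 in 6 and -3.04 in 27. Agtr1a had animal medians of -2.35 and -3.92 in naive 2 and 3, and of -5.16, -5.00, -2.33 and -10.97 in sham 1 to 4. Its lowest values were -11.46 in naive and -12.22 in sham pools. The ranges of the pools overlapped for each of these genes, although the animal means of Cckar, -3.13 and -2.51 in naive and -3.77 to -3.15 in sham rats, did not. In animal means the level differed by -0.06 cycles for Hrh3 (SE 0.487), -0.65 for Cckar (SE 0.538), 1.17 for Chrna4 (SE 0.812) and -0.80 for Agtr1a (SE 1.48), with adjusted p-values of 0.932 to 0.977 in limma. Cacna1g had a level mean in only 1 naive animal and was not tested: its median was -4.89 in 6 naive pools and -3.68 in 28 sham pools. In pools a larger share of neurons with a transcript and more transcript per neuron cannot be told apart.

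The 5 transcripts were also counted per pool. Naive pools carried on average 1.00, 1.30 and 1.91 of them in animals 1 to 3, and sham pools 3.14, 2.55, 3.82 and 2.88. Since the genes were picked for being higher in sham on these samples, the gap between groups follows from that choice and is given as a description. Pools with 4 or 5 of them numbered 3 of 24 in naive rats and 22 of 46 in sham rats. Cckar was detected in 21 of the 28 sham pools with Cacna1g and in 7 of the 18 without, and Agtr1a in 16 of 28 and 6 of 18. In naive pools Cckar was found in 1 of the 6 pools with Cacna1g and in 4 of the 18 without, and Agtr1a in 3 of 6 and 4 of 18, so the order for Cckar was not that of the sham pools. Sham pools with Cacna1g also had more detected assays, 101.4 on average against 84.6 in those without, and the part of yield in these joint counts was not tested.

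The study named 5 further genes as similar in pattern. Th encodes tyrosine hydroxylase, the rate-limiting enzyme of catecholamine synthesis. It was detected in 1 of 3, 8 of 10 and 8 of 11 naive pools and in 5 of 7, 8 of 11, 11 of 11 and 16 of 17 sham pools, so sham 1 and 2 lay among the naive animals. The difference was 22.5 points (SE 13.1, adjusted p = 0.855, limma; exact permutation p = 0.286), and 8.20 points without naive 1. Its level had a median of 1.10 cycles in 17 naive pools and 2.52 in 40 sham pools, and the animal means differed by 0.99 cycles (SE 0.654, adjusted p = 0.932, limma). Galr1, the gene of a galanin receptor, Sstr2, that of a somatostatin receptor, Hcn2, that of a hyperpolarization-activated channel, and Npff, that of neuropeptide FF, had differences of 13.7, 14.3, 11.1 and 12.1 points. Without naive 1 that of Galr1 turned to -5.54 and that of Hcn2 was 3.32, and without sham 3 that of Npff was 4.99. Their groups overlapped, the adjusted p was 0.855 for each (limma), and no exact permutation p was below 0.2. Galr1 was detected in all 5 naive and all 28 sham pools that had Cckar, and in 15 of 19 and 12 of 18 of those that did not. Pools with Cckar also had more detected assays, 104.6 against 85.9 in naive and 103.0 against 82.2 in sham rats, and the part of yield was not tested.

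Fos, the immediate-early gene used to mark recently active neurons, was found in 0 of 3, 1 of 10 and 3 of 11 naive pools. In sham rats it was found in 2 of 7, 4 of 11, 7 of 11 and 4 of 17 pools. Naive 3, at 27.3%, lay within the sham range of 23.5% to 63.6%. The difference was 25.6 points (SE 12.7, adjusted p = 0.855, limma; exact permutation p = 0.114) and was 16.7 with the number of assays as a covariate and 17.1 without sham 3. Fos levels were -10.95, -8.21, -3.91 and -2.11 cycles in the 4 naive pools, and from -5.38 to 1.13 (median -3.15) in the 17 sham pools. The naive values of -10.95 and -8.21, both from naive 3, lay below every sham value, and with a level mean in 1 naive animal only no test was made. Among genes of related factors, Jun was detected in 23 of 24 naive and 44 of 46 sham pools, too widely for the test of shares, and JunD had a difference of 1.21 points (adjusted p = 0.971, limma) that changed sign with the animal left out.

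Among pools with Fos, Th was detected in 1 of 1 pool of naive 2 and 1 of 3 of naive 3, and in 2 of 2, 3 of 4, 7 of 7 and 4 of 4 of the sham animals. The naive side of any Th level there thus rests on 1 pool per animal, at -0.99 and -0.86 cycles. The sham animal means were 1.48, 1.18, 3.83 and 0.71, all above both naive values. The difference was 2.72 cycles, and the exact permutation p of 0.0667 was the smallest that 2 against 4 animals can give. Individual sham pools at -2.66 and -1.52 cycles lay below both naive pools.

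**Figure D4:**
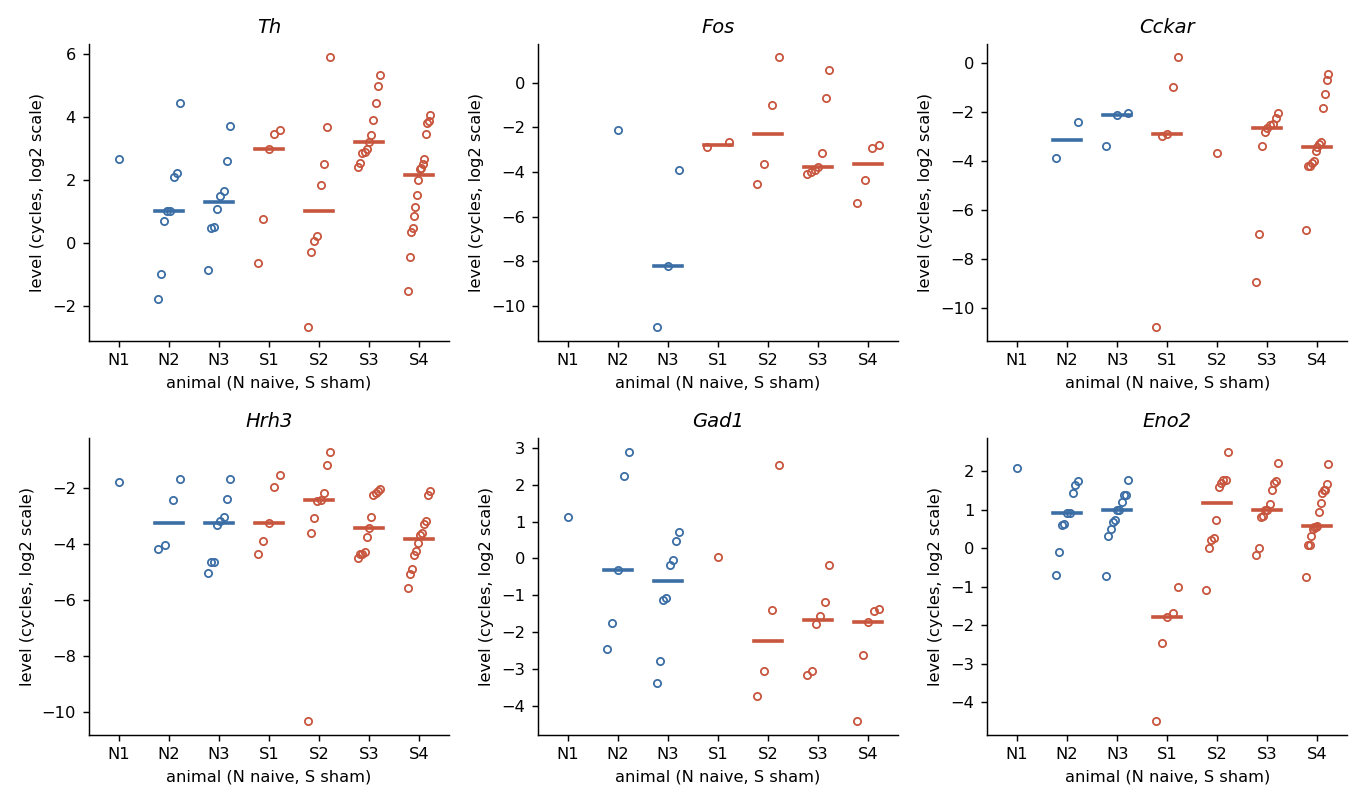
Levels in cycles (log2 scale, higher means more transcript) of 6 transcripts in the pools where each was detected, by animal (N naive, S sham), with a bar at the median of each animal that had 2 or more such pools. Th, Cckar and Hrh3 overlap between groups, Fos has only 4 naive points, Gad1 tends to be lower in the sham animals and Eno2 is low in S1.

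In 6 of the 133 genes (4.51%) every sham animal had a higher share than every naive animal, and in none (0 of 133, 0%) was every sham animal below. Besides Cacna1g and Chrna4 they were Grp, Chrm4, Esr1 and Cux1, 4 sparsely detected transcripts of which Cux1 was picked out after its values were seen. Grp, the gene of gastrin-releasing peptide, was detected in 0 of 3, 1 of 10 and 1 of 11 naive pools and in 1 of 7, 5 of 11, 7 of 11 and 3 of 17 sham pools. Its difference was 28.9 points (SE 13.0, adjusted p = 0.719, limma). Sham 1 and 4, at 14.3% and 17.6%, were just above the naive animals and sham 2 and 3 well above.

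Chrm4, the gene of the inhibitory M4 muscarinic receptor, was detected in 0 of 24 naive pools, which allows a share of up to 12.5%. In sham rats it was detected in 2 of 7, 2 of 11, 1 of 11 and 6 of 17 pools. Esr1, the gene of estrogen receptor alpha, was also detected in 0 of 24 naive pools and in 1, 3, 3 and 1 pools of sham 1 to 4. The lowest sham share of each gene, 9.09% for Chrm4 and 5.88% for Esr1, lay within what 0 of 24 allows. The adjusted p was 0.855 for both genes (limma). In single neurons Chrm4 was detected in 5 and Esr1 in 2 of the 54 of naive 3, and both in 0 of the 15 sham neurons, which allows a share of up to 20%, so no difference was detectable at this number. Cux1, a transcription factor gene, was detected in 1 of 24 naive and 8 of 46 sham pools.

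Fewer transcripts were less often detected after sham surgery. The lowest difference belonged to Chrm3, the gene of the excitatory M3 muscarinic receptor, found in 2 of 3, 6 of 10 and 9 of 11 naive pools and in 2 of 7, 4 of 11, 7 of 11 and 8 of 17 sham pools. Its difference was -25.6 points (SE 12.4), with an unadjusted p of 0.0473 that did not pass adjustment (adjusted p = 0.855, limma), and sham 3 overlapped the naive animals. It was the member of the muscarinic family at one end, with Chrm4 at the other. Gad1, which encodes a GABA-synthesizing enzyme, had a difference of -18.4 points, Nppc, the gene of C-type natriuretic peptide, of -17.7, Npy1r, that of the neuropeptide Y receptor Y1, of -17.4, and Chrna7, that of the alpha7 nicotinic subunit, of -16.3. None of these passed (adjusted p = 0.855 each, limma), and each rested in part on 1 animal: the difference was -8.02 for Gad1 and -4.03 for Nppc without naive 3, -7.81 for Npy1r without sham 1 and -9.81 for Chrna7 without sham 2. Chat had a difference of -12.0 points, with sham 2 lowest at 5 of 11 pools, while sham 1, 3 and 4 had 6 of 7, 11 of 11 and 16 of 17. Without sham 2 its difference was -0.06.

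By gene family, no list had a member past the adjusted threshold in either direction in pools, so the lists are described by their counts and medians beside the 7.48 points over all genes, and many of these turned without the 3 pools of naive 1. Among ion channels, the 3 T-type calcium channel genes had positive differences, but Cacna1h and Cacna1i of 6.48 and 5.74 points only, and of 0.37 and -8.30 without naive 1. Among HCN channel genes, which carry the pacemaker current, Hcn3 had the highest difference, 19.9 points, and 5.72 without naive 1. Of 4 high-voltage-activated calcium channel genes 3 had positive differences, from -9.65 for Cacna1d to 17.9 for Cacna1c, and 1 without naive 1. Cacna1d had -3.98 without sham 2, and Cacna1c 10.9 without sham 3. Scn1a, a sodium channel gene, had 15.3, and -1.90 without naive 1.

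Most receptor families held positive and negative differences. Of 4 histamine receptor genes, Hrh1 and Hrh2 had 5.09 and 5.10 points and Hrh4 had -4.20, all well under the value of Hrh3. Without naive 1 Hrh2 turned to -6.02, without naive 2 Hrh1 to -1.67 and without sham 2 Hrh4 to 1.37. The 3 nicotinic genes ran from -16.3 for Chrna7 to 30.4 for Chrna4 and the 5 muscarinic genes from -25.6 to 22.8. Both opioid receptor genes tested had positive differences: Oprk1, the kappa receptor gene, was detected in every one of the 46 sham pools and in 2 of 3, 7 of 10 and 11 of 11 naive pools (21.1 points, adjusted p = 0.855, limma), and Oprm1, the mu receptor gene, had 8.15, which turned to -7.70 without naive 1. Adrenergic receptor genes had a median of -0.475 points over 4 genes and serotonin receptor genes 3.13 over 9, with Htr6 highest and Htr2c lowest. In the family of gut hormone and feeding receptors 6 of 7 were positive, from -17.4 for Npy1r to 43.9 for Cckar, and 4 without naive 1. For adrenergic and serotonin receptors the median without naive 1 was -7.68 and 0.909.

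Genes of transmitter synthesis and of stress responses were mixed in direction. Among genes of catecholamine synthesis, Th had 22.5 points as above and Dbh, the gene of dopamine beta-hydroxylase, 12.5, which turned to -2.62 without sham 3. Ache, the gene of acetylcholinesterase, had 21.8 points and Chat -12.0, but Ache was found in 1 of 3, 9 of 10 and 11 of 11 naive pools and had 1.26 points without naive 1. Of the GABA synthesis genes Gad1 is given above, and Gad2 had -2.67 points, which turned to 3.49 without naive 3. Of 12 stress and hormone transcription factor genes 10 had positive differences, with a median of 7.51 points, close to that of all genes, and 5 did without naive 1, with a median of -2.93. Nr3c1, the glucocorticoid receptor gene, was lowest at -6.42, and at 0.77 without sham 2. Of 5 inflammatory genes 4 had positive differences, with Ptgs1, the gene of cyclooxygenase 1, at 20.1 points (12.3 without sham 4) and IL6r at -1.62. Without naive 1 the count was again 4, but of other members: IL6r turned to 1.71 and Ltb4r, a leukotriene receptor gene, from 7.63 to -1.82. Nos3, the gene of endothelial nitric oxide synthase, had 18.5 points, from 4 of 24 naive and 15 of 46 sham pools, all 4 naive ones from naive 2, and 11.9 points without naive 1.

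**Figure D5:**
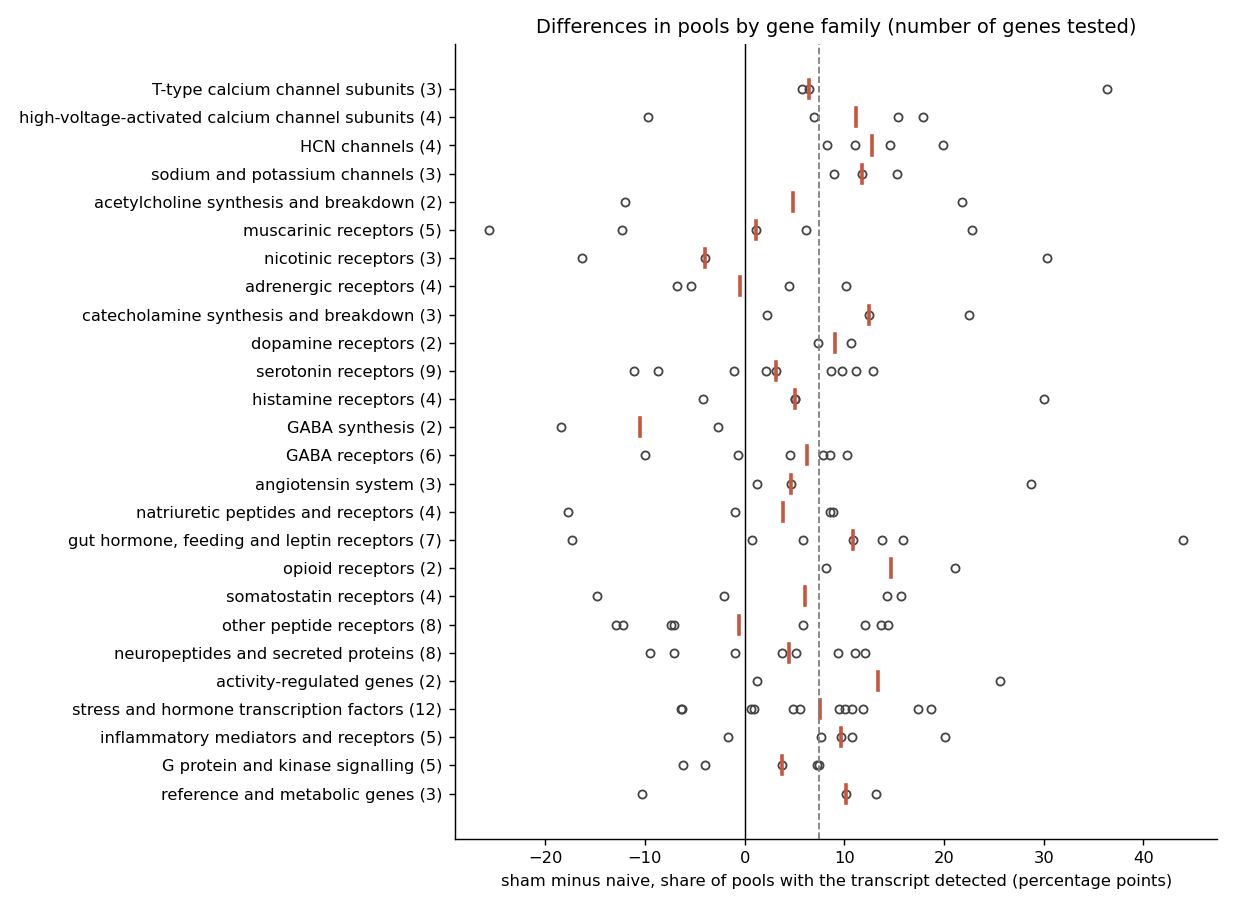
Each circle is 1 gene tested by share in pools, placed by the sham minus naive difference in percentage points and grouped by family; the red mark is the family median, the dashed line the median of all 133 genes (7.48) and the solid line 0. Most families straddle the dashed line, and the highest members (Cckar, Cacna1g, Chrna4, Hrh3, Agtr1a) each stand apart from the rest of their family.

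No transcript passed the test by its level in pools either. Of 116 genes tested, none passed in limma (0 of 116, 0%), the smallest adjusted p was 0.932 and 1 gene had an unadjusted p under 0.05. The methods' t-test, which counts samples and not animals, gave 9 genes unadjusted and 0 after adjustment. The median difference was -0.02 cycles. The gene with the smallest p in limma was Gad1, at 0.12 and -0.92 cycles in naive 2 and 3 and at -1.41, -1.82 and -2.31 in sham 2, 3 and 4. The 5 animals did not overlap, and the difference was -1.44 cycles (SE 0.594, adjusted p = 0.932; exact permutation p = 0.1, the smallest possible for 2 against 3). Sham 1 had Gad1 in 1 pool only, at 0.04 cycles and so above the mean of naive 3, and gave no mean. Single pools overlapped widely, from -3.39 to 2.90 in naive and from -4.42 to 2.54 in sham rats.

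The next genes by p were mostly lower in sham pools as well. Cartpt, the gene of the CART neuropeptide, was at -1.38 and -1.28 cycles in naive 2 and 3 and between -2.59 and -2.12 in the 4 sham animals, a difference of -0.99 (SE 0.454; exact permutation p = 0.0667, the smallest possible). Kcnn4, the gene of an intermediate-conductance calcium-activated potassium channel, had -0.58, -2.10 and -1.52 in naive and -2.08, -2.57, -2.49 and -2.38 in sham animals, a difference of -0.98 (SE 0.466; exact permutation p = 0.0571). Only naive 2 and sham 1 met. Gabre, a GABA-A receptor subunit gene, and Oprm1 had -1.55 and -1.39, and SStr5, a somatostatin receptor gene, had 1.18. The adjusted p of all of these was 0.932 in limma.

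Single neurons came mostly from 1 animal, so their comparison had thin support, and no transcript passed. Naive 2, sham 1, sham 2 and sham 4 had 3, 7, 3 and 5 neurons, beside 54 of naive 3, and sham 3 had 1 and was left out. Of 123 genes tested by share none passed in limma (0 of 123, 0%), and the smallest adjusted p was 0.513. An unadjusted p under 0.05 was found for 6 genes, where chance would give about 6.15. Fisher's exact test over samples gave 0 calls with 7 at that level. Differences were balanced, with 62 positive and 61 negative and a median of 0.50 points. The exact permutation test cannot go below 0.1 with 2 against 3 animals.

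Hcrtr1, the gene of orexin receptor 1, led the list. It was detected in 2 of 3 and 25 of 54 naive neurons (naive 3: 46.3%, Wilson 95% interval 33.7% to 59.4%) and in 1 of 7, 0 of 3 and 0 of 5 sham neurons. Its difference was -51.7 points (SE 17.5, adjusted p = 0.513, limma, and exact permutation p = 0.1), and every sham animal was below both naive animals. The same order held for Adra1b, Cacna1a, Cacna1i, Cck, Htr1f, Htr7 and Npff among the genes tested. In pools the Hcrtr1 difference was 14.4 points, and -1.48 without naive 2. Adra1b, the gene of an alpha-1 adrenergic receptor, was found in 2 of 3 and 12 of 54 naive and in 1 of 7, 0 of 3 and 0 of 5 sham neurons. Its difference was -39.7 points (adjusted p = 0.871, limma), with naive 2 at 66.7% from 3 neurons and naive 3 at 22.2%.

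Nr3c1 and Scn1a had differences of 45.7 and 43.8 points. These turned on naive 2, where both were at 0 of 3 neurons, while naive 3 had each in 36 of 54, against 4 of 7, 3 of 3 and 4 of 5 sham neurons for Nr3c1 and 5 of 7, 3 of 3 and 3 of 5 for Scn1a. JunD, at 1 of 3 and 44 of 54 in naive and 7 of 7, 3 of 3 and 4 of 5 in sham neurons, had 35.9 points. It turned on naive 2 as well, since naive 3, at 81.5%, lay above sham 4, at 80%. Cacna1i, the gene of a T-type channel subunit, was in 2 of 3 and 27 of 54 naive and 1 of 7, 1 of 3 and 1 of 5 sham neurons, a difference of -35.8. None of these 4 genes passed (adjusted p = 0.801 to 0.882, limma).

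The 5 genes named for sham surgery were mixed in single neurons. Cacna1g was found in 0 of 3 and 11 of 54 naive and 2 of 7, 2 of 3 and 1 of 5 sham neurons, a difference of 28.2 points, and Agtr1a in 0 of 3 and 9 of 54 against 3 of 7, 1 of 3 and 2 of 5, a difference of 30.4 points. Every sham animal was above both naive animals for Agtr1a, whereas for Cacna1g sham 4 lay just below naive 3. Among the genes tested, Cacna1e, Gfap, Mapk14, Oxtr and Rgs4 also had every sham animal above both naive animals. That order was thus not particular to Agtr1a. Gfap, the astrocyte gene, had 23.0 points in the same neurons (adjusted p = 0.902, limma). Chrna4 had 15.1 and Hrh3 13.9 points. Cckar was found in 2 of 3 and 7 of 54 naive and in 1 of 7, 1 of 3 and 1 of 5 sham neurons. Its difference of -17.3 points rested on the 3 neurons of naive 2: every sham animal was above naive 3, and over samples, 9 of 57 against 3 of 15, the difference was 4.21 points. The adjusted p was 0.882 to 0.911 for these 5 (limma). Fos was found in 1 of 3 and 7 of 54 naive neurons and in 1 of the 15 sham neurons.

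Levels in single neurons were tested for 83 genes and none passed in limma (0 of 83, 0%), with a smallest adjusted p of 0.990 and 2 genes at an unadjusted p under 0.05. These were Gabrq, a GABA-A receptor subunit gene, at 0.32 and 0.25 cycles in naive 2 and 3 and -1.66 and -5.04 in sham 1 and 4, and Cacna1d, the gene of the Cav1.3 calcium channel, at -0.41 and -1.09 in naive and -2.18, -2.64 and -2.21 in sham animals. The animal means of the 2 groups did not overlap for either gene. The group means differed by -3.64 cycles for Gabrq (SE 1.21, exact permutation p = 0.333) and by -1.59 for Cacna1d (SE 0.564, exact permutation p = 0.1). In pools Gabrq had -0.49 and Cacna1d 0.68 cycles. The methods' t-test over samples gave 12 genes unadjusted and 1 after adjustment, Eno2, the gene of neuron-specific enolase, which fell by 2.66 cycles (adjusted p = 2.09e-05). That call came with the low values of sham 1, without which its difference was -0.44 cycles (adjusted p = 0.540). Without sham 1 the same test, which counts neurons as replicates, called 2 other genes, Chat and Chrna7. Sham 4 stood lowest for both, at -4.46 and -4.41 cycles, against -0.81 and -1.05 in sham 2. Naive 2 and 3 had -0.26 and 0.34 for Chat and -1.02 and -0.20 for Chrna7. With all animals the adjusted p of both was 0.990 in limma.

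Whether the sham minus naive difference was itself unequal in pools and single neurons was tested by taking, in the 5 animals that had both, the pool share minus the single neuron share, and comparing that between groups. None of 116 genes passed in limma, 7 had an unadjusted p under 0.05, and the smallest adjusted p was 0.712. Nr3c1 and Hcrtr1 had the smallest p: their sham minus naive difference was lower in pools than in single neurons for Nr3c1 (-62.0 points) and higher for Hcrtr1 (59.4 points). Both rested in part on the 3 single neurons of naive 2, of which 0 had Nr3c1 and 2 had Hcrtr1.

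The spread between animals of a group was wide beside the group differences. The within-group SD of the pool share had a median of 15.6 points over the 133 genes and reached 38.7 for Trhr, the gene of the thyrotropin-releasing hormone receptor, which drives vagal motor neurons. Trhr was detected in 1 of 3, 3 of 10 and 11 of 11 naive pools and in 5 of 7, 0 of 11, 2 of 11 and 13 of 17 sham pools. All pools of naive 3 and none of sham 2 were positive, and each group held animals on both sides of the other's mean. Sham 2 was the lowest sham animal for Trhr, Cckar and Chat, which were put together after their values were seen, and its mean of 85.2 detected assays per pool was the lowest of the sham animals.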

How the data were processed

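Per the labels, NeuN-stained neurons were taken by laser capture from frozen brainstem sections, lysed singly or as pools, and run on a Fluidigm BioMark system after preamplification. The deposited values are raw Ct, a score in cycles with no normalization by the authors. The chip of each sample was not given in the sources used here and was not tested as a batch. The protocol states 3 animals and pools of 2 to 5 cells, while the labels give 4 sham animals and pools of up to 8 cells.

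A second run existed for 5 samples and a duplicate assay for 3 genes; each was averaged with its first. Per animal, the share of samples with a Ct (genes detected in 10% to 95% of samples) and the average level where 2 or more samples had it (2 animals per group; for single neurons 1 naive) were fitted with limma 3.58.1 in R 4.3.3, equal weights, two-sided, Benjamini-Hochberg over all genes. Genes missing in an animal were fitted on the others. Single values were tested by exact permutation over animals (scipy 1.17.1). The fits were tested on simulated data. Wilson intervals and limits from a count of 0 cover counting error only.

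Members and gene lists were chosen with earlier results of these data known. Named genes were the study's own, the 6 with the smallest p per fit, those past an adjusted p of 0.05, those without overlap and at least 30 points apart, and per list the highest and lowest difference. Other list members were named beside these after their values were seen. Alternatives covered sample and gene filters, centring, weights, scale, unit of test, sides, pool size, block and each animal. All 165 symbols matched RefSeq's rat genes (160 exactly, the rest by case).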

Additional observations from a re-analysis of the deposited data

Results flagged for a closer look

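Values of 1 sham animal that stood apart from the other 3 were looked for among the genes named here, in pools, and among the yields. Of 116 such groups of 4 animals 10 were picked out, where chance would pick about 5.80. Shares move in steps and can tie at 100%, so that chance number is a rough guide. Among levels, the largest gap to the next animal, taken over the range, was that of Eno2, the gene of neuron-specific enolase. Its mean level in pools was -2.28 cycles in sham 1 and 0.83 to 1.07 in the other sham animals. The same animal was low in single neurons, from -7.22 to -2.25 cycles in 6 neurons, where sham 2 had 1.32 to 1.56, sham 4 had -0.94 to 0.60 and naive 3 a median of 1.02. Over both sample types all 11 detected values of sham 1 were at or below -1.01, and 3 of the 118 values of the other sham and naive animals were. Eno2 was among the 35 centring genes, and the cause was not tested.

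Cckar was detected in 9.09% of the pools of sham 2 and in 71.4% to 81.8% of those of the others. Hrh3 was detected in 100% of the pools of sham 3, against 70.6% to 72.7%, and Htr1d, a serotonin receptor gene, in 36.4% of those of sham 3, against 81.8% to 85.7%. Nr3c1 was detected in 54.5% of the pools of sham 2, against 81.8% to 85.7%, and its level was -0.71 cycles in sham 3, against -1.42 to -1.31. SStr5 was detected in 42.9% of the pools of sham 1, against 17.6% to 18.2%. Sstr4, another somatostatin receptor gene, had a level of -1.25 cycles in sham 2, against -3.10 to -2.89, and Cacna1i of -2.42 in sham 4, against -1.57 to -1.44. Of the pools with Fos, 75% had Th in sham 2 and 100% in the other sham animals.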

How the results depend on the processing

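Counts of genes past an adjusted p of 0.05 in limma stayed at 0 for pools and single neurons, share and level, under every alternative run other than those given here. Leaving out each animal gave 0 to 1 calls for pool shares (Cckar, without sham 2), 0 to 0 for pool levels and single neuron shares, and 0 to 2 for single neuron levels, the 2 (Chat and Chrna7) coming not from limma but from the methods' t-test without sham 1, an alternative chosen after seeing the data. With all animals the methods' t-test over samples gave 9 pool levels and 12 single neuron levels unadjusted, and 0 and 1 after Benjamini-Hochberg; the 1 was Eno2 (adjusted p = 2.09e-05), which had an adjusted p of 0.540 without sham 1. Genes with every sham animal above every naive animal, 6 in all pools, numbered 1 in right DMV, 11 with single neurons and pools together, and 6 to 28 when 1 animal was left out, with 28 without naive 3, 14 without sham 2 and 11 without naive 2. Genes with every sham animal below, 0 in all pools, numbered 2 at the 50% limit, 2 in left DMV, and 0 to 4 when 1 animal was left out. Detected assays per pool differed by -0.88 at the 50% limit and by 2.62 to 16.6 when 1 animal was left out, assays per single neuron by -6.93 to 8.13, cells per pool by -0.24 at the 50% limit and by -0.32 to 0.27, Th level in pools with Fos by 2.05 to 3.08 cycles and Th share there by -6.25 to 60.4 points. Among the values of the named genes 70 of 1309 changed sign under an alternative, none of them called. Of the 69 results followed, 37 had at least 1 change of sign. The 5 genes named for sham surgery changed sign under none of 20 alternatives for pool shares. That is no sign of stability, since they were chosen on these samples.

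With the animal number as a replicate block, pool shares and levels again gave 0 calls (7 of 133 and 1 of 114 genes at an unadjusted p under 0.05). The numbers do not pair the animals: deviations of same-numbered animals correlated at 0.21, 0.22 and -0.06. No paired analysis was possible for single neurons because the animals compared share 1 number that both groups have. The 50% limit left too few single neurons per animal for a fit. The number of pools limits the precision: a share over 3 to 17 pools per animal moves in steps of 5.88 to 33.3 points.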
